A study of Rattus norvegicus with 9 samples.

Results

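The Hippo genes described here were Lats1, Lats2, Sav1 and Nf2 of the kinase arm, Yap1 and Wwtr1 for the coactivators YAP and TAZ, Tead1 and Tead4 for their DNA-binding partners, and Amotl1 and Amotl2 for angiomotins that bind YAP. They were chosen by symbol, and all 10 had a row among the 28935 gene symbols of the count table, among the 14151 genes with enough counts to be tested, and among the 14986 genes with an RPKM value (read counts corrected for library size and for gene length). The cells were primary ventricular myocytes isolated from Sprague Dawley rats aged 1 or 2 days and cultured for 48 h with 3% fetal bovine serum. They were then given an adenovirus for Nfya, for Nfe2l1 or for GFP, at 8 µL in 1 mL of serum-free medium a well, and RNA was collected 48 h later. Each virus had 3 mRNA libraries, 9 in all, so every group carried an adenovirus and had no serum in the last 48 h. The GFP virus was the control, and no uninfected cells were among the libraries. The promoter and the species of the viral inserts were not given in the sources used here, nor do the labels tell whether replicate libraries are separate cultures. The p-values therefore measure how these libraries vary, and that variation may be technical.

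In the Hippo pathway, the kinases MST1 and MST2, encoded by Stk4 and Stk3, act with the scaffold SAV1 to activate LATS1 and LATS2, and NF2 (merlin) recruits LATS to the membrane. Active LATS phosphorylates YAP and TAZ, which are then held in the cytoplasm or degraded. YAP and TAZ that enter the nucleus bind TEAD proteins, which recognise the element GGAATG (MCAT in muscle genes), and angiomotins bind YAP and can keep it out of the nucleus. In the heart the pathway is known for restraining cardiomyocyte proliferation and heart size. NFYA is the subunit of NF-Y through which that factor binds CCAAT boxes, and NFE2L1 (NRF1) is a CNC basic leucine zipper factor that binds antioxidant response elements and is known for inducing proteasome genes.

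The libraries held 5712123 to 7310774 counts, with the GFP library of replicate 3 the shallowest. The transcripts named on the viruses did not mark their own groups: Nfya averaged 89.0 ± 0.68 CPM in the Nfya-labelled libraries, 92.3 ± 2.20 CPM in the Nfe2l1-labelled libraries and 80.4 ± 2.19 CPM in the GFP libraries (CPM, counts scaled to library size with TMM factors; SD, n = 3 each). Nfe2l1 averaged 222.7 ± 4.79, 239.4 ± 6.14 and 240.7 ± 6.09 CPM in those 3 groups. The groups below are therefore named by their labels, and each direction rests on those labels. Cardiomyocyte markers were high in every library: the sum over 9 of them was 3328 to 3378 CPM in Nfya-labelled, 2999 to 3313 CPM in Nfe2l1-labelled and 3110 to 3448 CPM in GFP libraries, and none was at 0. Markers of 5 other cell types were also present, and the sum over 10 fibroblast markers was 2118 to 2140 CPM with Nfya and 1780 to 1911 CPM with Nfe2l1, against 1093 to 1155 CPM with GFP. Fewer cells of a type and less RNA per cell cannot be told apart in bulk RNA.

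On the per-length scale the 10 genes ranged from somewhat below the middle to near the top of the genes with an RPKM value (plot of RPKM by group). Levels and their order on this scale depend on the gene lengths the authors chose, from 1545 bases for Yap1 to 7087 bases for Lats1. Tead1 led in all 3 groups, with 70.2 ± 0.51 RPKM in Nfya-labelled, 69.2 ± 2.16 RPKM in Nfe2l1-labelled and 70.9 ± 3.92 RPKM in GFP libraries (SD, n = 3 each), at or above 93.8%, 93.2% and 93.8% of the genes with an RPKM value. The lowest of the 10 was Tead4 with Nfya, at or above 47.9% of those genes, Tead4 with Nfe2l1, at or above 42.8%, and Lats1 with GFP, at 23.2 ± 0.52 RPKM and at or above 57.9%. After Tead1 the order ran Yap1, Amotl2, Lats2, Sav1, Wwtr1, Nf2, Amotl1, Lats1 and Tead4 with Nfya, where no neighbours in the order overlapped between libraries. With Nfe2l1 it ran Yap1, Amotl2, Sav1, Lats2, Wwtr1, Nf2, Lats1, Amotl1 and Tead4, and Sav1 and Lats2 overlapped. With GFP it ran Amotl2, Yap1, Lats2, Sav1, Wwtr1, Nf2, Amotl1, Tead4 and Lats1, and the overlapping neighbours were Tead1 with Amotl2, Sav1 with Wwtr1, Amotl1 with Tead4, and Tead4 with Lats1. Tead4 was last of the 10 in Nfya-labelled libraries, at 16.7 ± 0.98 RPKM, and in Nfe2l1-labelled libraries, at 13.2 ± 1.27 RPKM, against 24.5 ± 1.35 RPKM and ninth place in GFP libraries.

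**Figure D1:**
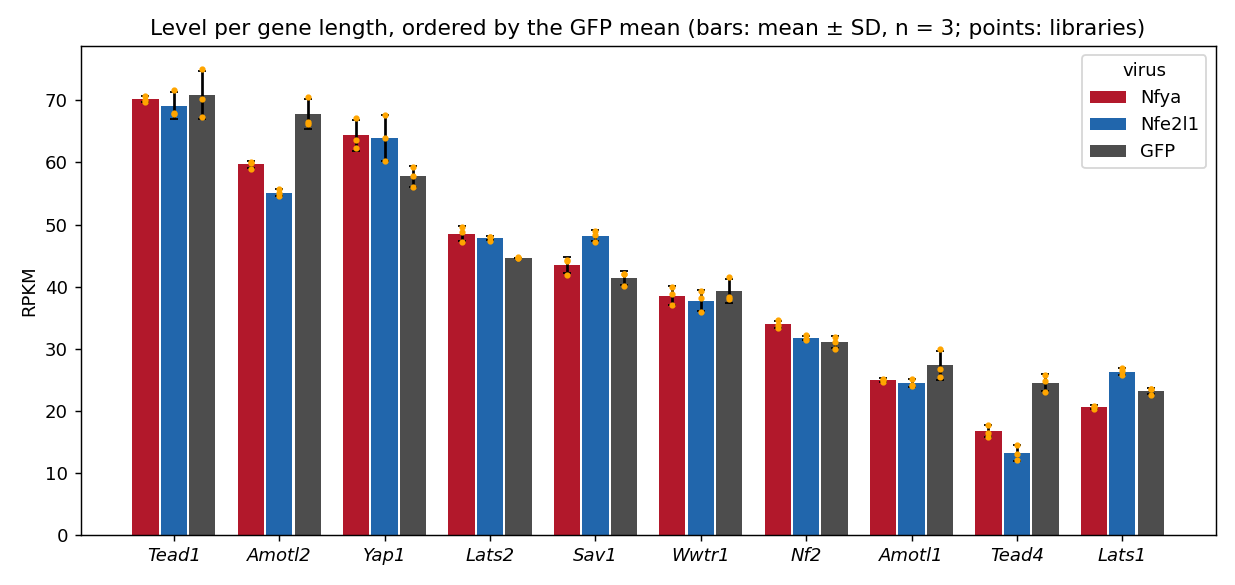
Level of the 10 Hippo genes per gene length, as RPKM on the vertical axis, with genes ordered by their GFP mean and a bar for Nfya, Nfe2l1 and GFP at each gene; bars are means ± SD (n = 3) and points are libraries. Tead1 led with each virus, at 70.2, 69.2 and 70.9 RPKM, and Tead4 was lowest with Nfya and with Nfe2l1, while Lats1 was lowest with GFP.

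Promoter windows were available for 7 of the 10 genes (RefSeq, build GRCr8; 250 bases before and 50 after the annotated start), and not for Lats2, Tead1 and Tead4. They are shown for the 5 genes whose window held a CCAAT box (CCAAT or ATTGG), the TEAD element (GGAATG or CATTCC) or an antioxidant response element core (TGACNNNGC or TGAGNNNGC, N any base, on either strand), since these are the letters read by NF-Y, by TEADs and by NFE2L1; motifs are in capitals, none overlaps another, and each sequence runs 5′ to 3′ on the gene's strand. Yap1 lies on the minus strand at chr8:13451388-13451687 and has GGAATG 116 bases before the start.
Yap1: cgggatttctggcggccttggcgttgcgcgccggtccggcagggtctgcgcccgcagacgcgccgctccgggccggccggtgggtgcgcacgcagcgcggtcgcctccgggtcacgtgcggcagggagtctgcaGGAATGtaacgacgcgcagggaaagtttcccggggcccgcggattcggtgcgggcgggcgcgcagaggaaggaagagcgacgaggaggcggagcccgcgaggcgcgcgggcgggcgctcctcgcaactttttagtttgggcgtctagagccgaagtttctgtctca
Sav1 lies on the minus strand at chr6:94236049-94236348 and has CATTCC 167 bases and TGAGCCGGC 37 bases before the start.
Sav1: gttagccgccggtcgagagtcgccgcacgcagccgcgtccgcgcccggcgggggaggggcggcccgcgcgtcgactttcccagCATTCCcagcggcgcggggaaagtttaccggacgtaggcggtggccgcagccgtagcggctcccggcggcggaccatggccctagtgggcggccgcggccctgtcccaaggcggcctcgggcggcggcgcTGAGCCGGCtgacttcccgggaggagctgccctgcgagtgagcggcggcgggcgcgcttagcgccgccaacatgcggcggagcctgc
Nf2 lies on the minus strand at chr14:83934102-83934401 and has ATTGG 191 bases and CCAAT 127 bases before the start.
Nf2: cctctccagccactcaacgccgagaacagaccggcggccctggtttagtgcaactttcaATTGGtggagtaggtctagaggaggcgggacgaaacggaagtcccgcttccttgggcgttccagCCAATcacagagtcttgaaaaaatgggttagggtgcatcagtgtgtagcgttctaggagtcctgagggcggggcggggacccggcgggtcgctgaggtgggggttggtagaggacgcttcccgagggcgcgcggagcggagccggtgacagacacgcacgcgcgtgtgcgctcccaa
Amotl1 has 5 annotated windows, of which the one on the minus strand at chr8:19748978-19749277 has TGACCTGGC 134 bases, TGAGTCAGC 93 bases and ATTGG 73 bases before the start; a window 1 base away holds the same motifs and the other 3 hold none.
Amotl1: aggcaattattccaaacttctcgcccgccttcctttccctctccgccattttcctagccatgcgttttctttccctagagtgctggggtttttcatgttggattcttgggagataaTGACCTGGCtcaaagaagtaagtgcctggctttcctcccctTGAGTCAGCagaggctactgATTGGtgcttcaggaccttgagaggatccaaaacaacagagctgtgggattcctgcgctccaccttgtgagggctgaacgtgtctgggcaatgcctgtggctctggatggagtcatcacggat
Amotl2 lies on the plus strand at chr8:112182376-112182675 and has CATTCC 76 bases before the start.
Amotl2: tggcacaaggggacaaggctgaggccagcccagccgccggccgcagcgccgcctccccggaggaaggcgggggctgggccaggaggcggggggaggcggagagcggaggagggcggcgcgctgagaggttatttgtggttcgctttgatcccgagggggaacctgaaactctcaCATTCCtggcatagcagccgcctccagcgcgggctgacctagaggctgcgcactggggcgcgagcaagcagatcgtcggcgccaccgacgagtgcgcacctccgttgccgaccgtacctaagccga
No motif was found in the Lats1 window or in the Wwtr1 window. Over all 33469 windows of the same length, 37.5% held a CCAAT box, 14.2% the TEAD element, 12.1% TGACNNNGC and 17.2% TGAGNNNGC. A match describes letters in the window and is not evidence of binding.

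In the kinase arm, Lats1 differed most between the Nfya and Nfe2l1 viruses, and it lay below GFP with Nfya and above GFP with Nfe2l1. Lats1, which encodes a kinase of YAP and TAZ, had 142.2, 145.0 and 146.2 CPM in Nfya-labelled libraries and 188.1, 184.5 and 189.5 CPM in Nfe2l1-labelled libraries, against 166.5, 166.2 and 161.3 CPM in GFP libraries. The 3 groups did not overlap, with GFP in the middle. As log2 fold changes, Lats1 fell with Nfya (-0.19 ± 0.04, SE, adjusted p = 6.25e-05) and rose with Nfe2l1 (0.19 ± 0.04, adjusted p = 3.91e-05), and Nfya set directly against Nfe2l1 gave -0.38 ± 0.04 (adjusted p = 2.85e-08), a level 22.9% lower. These p-values come from edgeR's quasi-likelihood test and were adjusted over the 14151 genes tested. The call held in all 19 alternative settings in each of the 3 comparisons.

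Lats2, the paralogous kinase, had 240.2, 232.2 and 244.1 CPM with Nfya, 239.9, 238.4 and 236.7 CPM with Nfe2l1, and 221.4, 221.2 and 223.6 CPM with GFP. Both viruses stood above GFP and overlapped each other. The rises were small: 0.11 ± 0.03 on the log2 scale with Nfya (adjusted p = 0.00539) and 0.10 ± 0.03 with Nfe2l1 (adjusted p = 0.00571). The direct difference, Nfya minus Nfe2l1, was 0.00, with a 95% interval of -0.06 to 0.06. The ratio of Lats2 to Lats1 on the RPKM scale was 2.36 ± 0.07 with Nfya and 1.82 ± 0.03 with Nfe2l1, against 1.93 ± 0.05 with GFP (SD, n = 3 each). The 3 groups did not overlap in this ratio, and an exact 2-sided permutation test of 3 against 3 libraries gave p = 0.1, the smallest it allows, for each pair (adjusted p = 0.15 over the 12 ratio tests made).

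Sav1, the scaffold that joins MST and LATS kinases, had 99.5, 94.5 and 99.6 CPM with Nfya, 110.5, 112.9 and 106.8 CPM with Nfe2l1, and 95.6, 91.2 and 96.4 CPM with GFP. The Nfe2l1-labelled libraries were above all others, and Nfya overlapped GFP. Sav1 rose with Nfe2l1 by 0.22 ± 0.05 on the log2 scale (adjusted p = 9.81e-05), and Nfya against GFP gave 0.05 ± 0.05 (adjusted p = 0.345; 95% interval -0.04 to 0.15). Nfya against Nfe2l1 gave -0.17 ± 0.05 (adjusted p = 0.00125).

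Nf2, which encodes the upstream activator merlin, had 153.9, 148.6 and 150.3 CPM with Nfya, 145.2, 143.1 and 140.7 CPM with Nfe2l1, and 143.4, 134.8 and 140.6 CPM with GFP. Nfya stood above the other groups, and Nfe2l1 overlapped GFP. Nf2 rose with Nfya by 0.11 ± 0.04 on the log2 scale (adjusted p = 0.00789), and Nfe2l1 against GFP gave 0.04 ± 0.04 (adjusted p = 0.451; 95% interval -0.04 to 0.11). The direct difference, Nfya minus Nfe2l1, was 0.08 ± 0.04 and missed the threshold (adjusted p = 0.0687), and it passed in 8 of the 19 alternative settings, with adjusted p of 0.0336, 0.0229 and 0.0210 without Nfe2l1 replicate 1, GFP replicate 1 and GFP replicate 2.

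**Figure D2:**
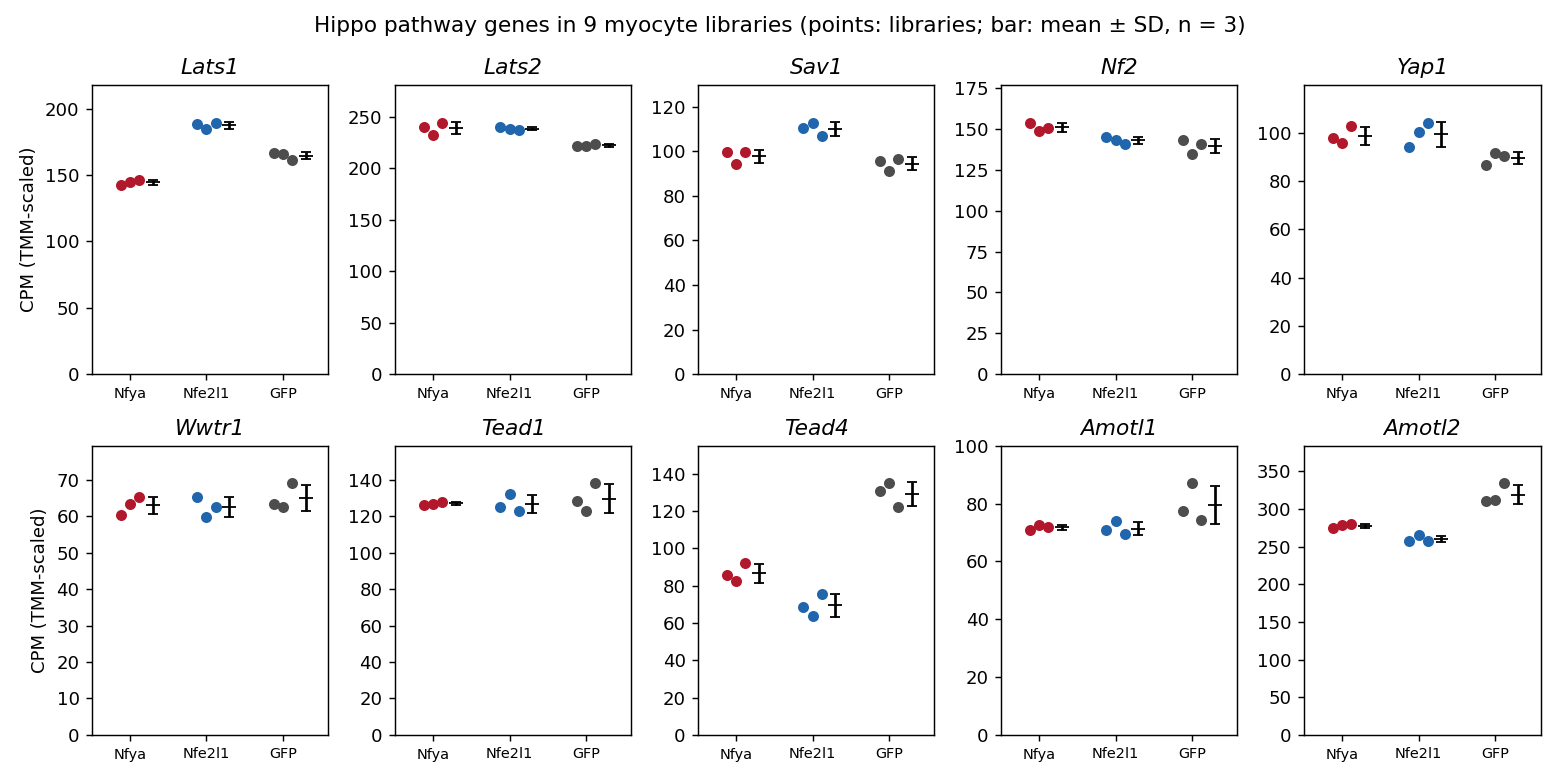
TMM-scaled CPM of the 10 Hippo genes in each library, a panel for each gene; points are libraries, bars are group means ± SD (n = 3), and each vertical axis starts at 0. Lats1 lay at 142.2 to 146.2 CPM with Nfya and 184.5 to 189.5 CPM with Nfe2l1 around 161.3 to 166.5 CPM with GFP, and Tead4 was lower with both viruses than in every GFP library.

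Yap1 rose slightly with both viruses and Wwtr1 did not pass the test with either. Yap1 had 97.6, 95.6 and 102.9 CPM with Nfya, 93.9, 100.2 and 104.2 CPM with Nfe2l1, and 86.7, 91.8 and 90.2 CPM with GFP. Every library of both viruses was above every GFP library, and the viruses overlapped each other. The rise was 0.14 ± 0.05 on the log2 scale with Nfya (adjusted p = 0.0146) and 0.15 ± 0.05 with Nfe2l1 (adjusted p = 0.00737). The call with Nfya was lost without Nfya replicate 3 (0.11, adjusted p = 0.0892) and with DESeq2 (adjusted p = 0.0561). Wwtr1, which encodes TAZ, had 60.4, 63.4 and 65.2 CPM with Nfya, 65.1, 59.9 and 62.6 CPM with Nfe2l1, and 63.3, 62.6 and 69.0 CPM with GFP, so that all 3 groups overlapped. Its 95% interval against GFP on the log2 scale ran from -0.15 to 0.07 with Nfya and from -0.16 to 0.06 with Nfe2l1. The ratio of Yap1 to Wwtr1 in RPKM was 1.67 ± 0.06 with Nfya, 1.70 ± 0.14 with Nfe2l1 and 1.47 ± 0.08 with GFP. In that ratio Nfya did not overlap GFP (exact permutation p = 0.1, the smallest possible; adjusted p = 0.15) and Nfe2l1 did (exact permutation p = 0.2; adjusted p = 0.267).

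Tead4 changed most of the 10 genes against GFP and Tead1 did not pass the test in any comparison. Tead4 had 85.7, 82.4 and 92.3 CPM with Nfya and 68.7, 63.8 and 75.8 CPM with Nfe2l1, against 130.7, 134.9 and 122.2 CPM with GFP. The 3 groups did not overlap. Tead4 fell with Nfya by 0.58 ± 0.05 on the log2 scale, 1.49-fold lower (adjusted p = 2.31e-07), and with Nfe2l1 by 0.90 ± 0.06, 1.86-fold lower (adjusted p = 1.72e-09). The direct comparison of Nfya with Nfe2l1 gave 0.32 ± 0.06 (adjusted p = 0.000441). In the authors' deposited table the log2 fold changes of Tead4 were -0.54 for Nfya and -0.90 for Nfe2l1 against GFP. Tead1, the DNA-binding partner with the highest level per gene length, had 126.3, 127.0 and 128.1 CPM with Nfya, 125.2, 132.6 and 123.1 CPM with Nfe2l1, and 128.4, 122.8 and 138.2 CPM with GFP. Those groups overlapped, and the 95% interval of Tead1 against GFP was -0.11 to 0.06 with Nfya and -0.12 to 0.06 with Nfe2l1. The ratio of Tead1 to Tead4 in RPKM was 4.23 ± 0.22 with Nfya and 5.30 ± 0.66 with Nfe2l1, against 2.90 ± 0.33 with GFP, without overlap in any pair (exact permutation p = 0.1 each, the smallest possible; adjusted p = 0.15). With GFP both genes had nearly the same mean CPM, 129.8 for Tead1 and 129.3 for Tead4. The rank of Tead1 over Tead4 with GFP and the size of the ratio therefore rest on the lengths used, 1824 and 5253 bases.

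The 4 TEAD genes together summed to 133.1 ± 1.95 RPKM with Nfya and 112.2 ± 1.48 RPKM with Nfe2l1, against 147.3 ± 1.37 RPKM with GFP (SD, n = 3 each), with no overlap between groups. The Tead1 share of that sum was 52.8% with Nfya and 61.7% with Nfe2l1, against 48.1% with GFP, while Tead1 itself stayed within 69.2 to 70.9 RPKM. The sum and the shares depend on the gene lengths used. Tead2, another member of the family, averaged 27.7 ± 0.49 RPKM with Nfya and 15.5 ± 0.55 RPKM with Nfe2l1, against 33.5 ± 0.97 RPKM with GFP. On the CPM scale Tead2 fell by 0.29 ± 0.06 with Nfya (adjusted p = 1.47e-05) and by 1.11 ± 0.07 with Nfe2l1 (adjusted p = 1.25e-11), as log2 fold changes. Tead3, named here to complete the family after its values were seen, gave -0.01 ± 0.05 with Nfya (adjusted p = 0.889) and fell by 0.36 ± 0.05 with Nfe2l1 (adjusted p = 3.08e-06). With Nfe2l1, then, Tead2, Tead3 and Tead4 fell and Tead1 did not pass the test; with Nfya, Tead2 and Tead4 fell.

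**Figure D3:**
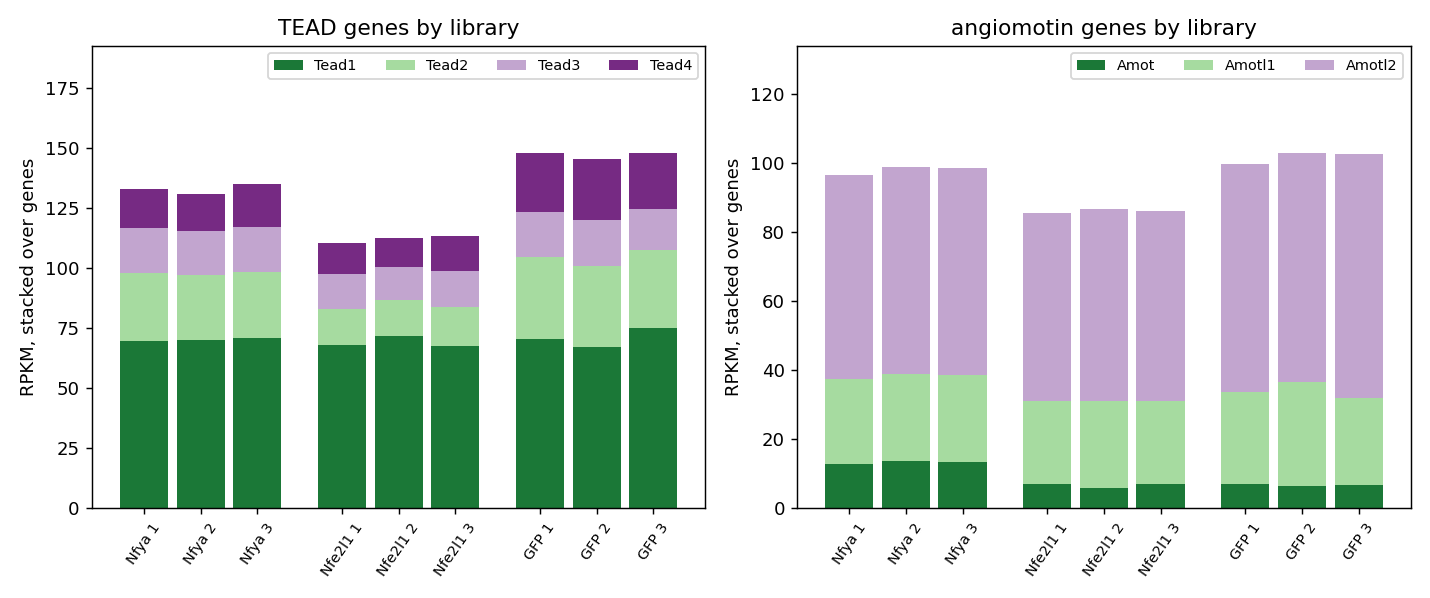
RPKM of the 4 TEAD genes (left) and of the 3 angiomotin genes (right), stacked by gene, with a bar for each library. The TEAD sum averaged 133.1 RPKM with Nfya, 112.2 RPKM with Nfe2l1 and 147.3 RPKM with GFP, and the Amot part of the angiomotin sum was 13.6%, 7.67% and 6.53%.

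Both angiomotin-like genes were lower with both viruses, Amotl2 more firmly than Amotl1. Amotl2 had 274.7, 279.3 and 279.5 CPM with Nfya and 257.9, 265.1 and 257.2 CPM with Nfe2l1, against 310.7, 312.4 and 334.0 CPM with GFP. The 3 groups did not overlap. Amotl2 fell with Nfya by 0.20 ± 0.03 on the log2 scale (adjusted p = 6.43e-05) and with Nfe2l1 by 0.29 ± 0.03 (adjusted p = 8.33e-07). The direct difference, Nfya minus Nfe2l1, was 0.10 ± 0.03 (adjusted p = 0.0203), and it lost its call without Nfya replicate 2 (adjusted p = 0.0645) and without Nfya replicate 3 (adjusted p = 0.0654). Amotl1 had 71.0, 72.5 and 72.0 CPM with Nfya and 70.7, 74.0 and 69.4 CPM with Nfe2l1, against 77.5, 87.0 and 74.3 CPM with GFP. Neither virus overlapped GFP, and the viruses overlapped each other. The GFP library of replicate 3 was only just above the highest Nfe2l1-labelled library, and GFP replicate 2 was well above the other GFP libraries. Amotl1 fell by 0.15 ± 0.05 with Nfya (adjusted p = 0.0214) and by 0.17 ± 0.05 with Nfe2l1 (adjusted p = 0.0129). Without GFP replicate 2 both calls were lost, at -0.05 (adjusted p = 0.515) with Nfya and -0.08 (adjusted p = 0.251) with Nfe2l1. The Amotl1 call was also lost without Nfe2l1 replicate 1 or Nfe2l1 replicate 3 in both comparisons, and without Nfya replicate 1 in that with Nfya, at adjusted p between 0.0534 and 0.0738. In Nfya against GFP, leaving out those Nfe2l1 libraries shifted the median log2 fold change over all genes by 0.035 and 0.036. The part of that shift in the lost calls was not tested. In all, 11 of the 19 alternatives lost the Amotl1 call with Nfya, among them DESeq2 (adjusted p = 0.137), no low count filter (adjusted p = 0.0529) and limma at both pseudocounts (adjusted p = 0.07 and 0.0721), and 5 of 19 lost it with Nfe2l1. In the authors' deposited table Amotl1 with Nfya had a log2 fold change of -0.12 and an adjusted p of 0.0705.

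Amot, the founding angiomotin, averaged 13.3 ± 0.51 RPKM with Nfya and 6.61 ± 0.61 RPKM with Nfe2l1, against 6.64 ± 0.18 RPKM with GFP. It rose with Nfya by 0.99 ± 0.06 on the log2 scale (adjusted p = 4.17e-10), and with Nfe2l1 its 95% interval was -0.13 to 0.13 (adjusted p = 0.999). The sum over Amot, Amotl1 and Amotl2 was 97.9 ± 1.34 RPKM with Nfya and 86.2 ± 0.59 RPKM with Nfe2l1, against 101.7 ± 1.79 RPKM with GFP. Amot was 13.6% of that sum with Nfya, 7.67% with Nfe2l1 and 6.53% with GFP. The ratio of Amotl2 to Amotl1 in RPKM was 2.40 ± 0.01 with Nfya, 2.26 ± 0.04 with Nfe2l1 and 2.50 ± 0.28 with GFP, and both viruses overlapped GFP (exact permutation p = 0.7 with Nfya and 0.3 with Nfe2l1).

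Counted together, 3 of the 10 genes rose with Nfya against GFP (Lats2, Nf2, Yap1), 4 fell (Lats1, Tead4, Amotl2 and Amotl1, the last in 8 of 19 alternatives) and 3 did not pass the test, where 52.2% of all genes tested passed it, 24.3% higher and 27.9% lower. With Nfe2l1 against GFP, 4 rose (Lats1, Lats2, Sav1, Yap1), 3 fell (Tead4, Amotl1, Amotl2) and 3 did not pass, where 58.6% of all genes passed, 28.9% higher and 29.7% lower. In Nfya against Nfe2l1, 2 were higher (Tead4, Amotl2), 2 lower (Lats1, Sav1) and 6 did not pass, where 50.6% of all genes passed, 25.2% higher and 25.4% lower. The libraries did not overlap for 7, 7 and 5 of the 10 genes in these 3 comparisons, where this held for 61.6%, 64.0% and 60.0% of all genes. At a change of at least 1.5-fold the test called 0 of the 10 with Nfya, 1 with Nfe2l1 (Tead4) and 0 in Nfya against Nfe2l1, where it called 17.7%, 21.8% and 14.8% of all genes. The shares of the 10 that were called, 70%, 70% and 40%, are near the background and do not set them apart from other genes. Their median absolute log2 fold change was 0.13, 0.16 and 0.05, beside 0.20, 0.24 and 0.19 over all genes, and their median signed value was -0.03, 0.00 and 0.01, beside -0.02, -0.01 and 0.01. Tead4 with Nfe2l1 was larger in size than 85.6% of all genes and Tead4 with Nfya than 80.2%, while Lats1 with Nfya was at 48.6% and Tead1 at 7.96%. The comparisons with GFP share the GFP libraries, so the directions that both viruses show are not independent of each other.

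**Figure D4:**
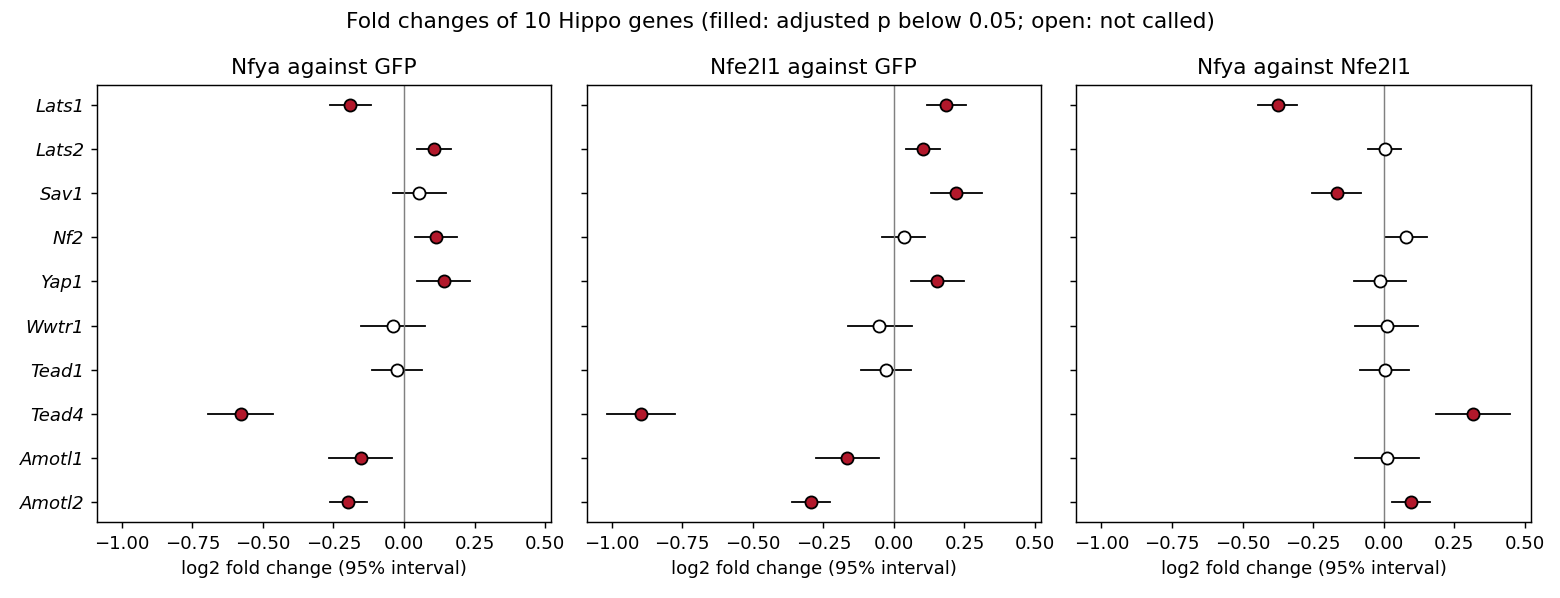
Log2 fold change of the 10 Hippo genes in the 3 comparisons, with 95% intervals; filled points passed the test at an adjusted p below 0.05 and open points did not. Tead4 stands apart at -0.58 with Nfya and -0.90 with Nfe2l1 against GFP, and Lats1 lies on opposite sides of 0, at -0.19 and 0.19.

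The rest of the pathway was read from a list of 33 other Hippo genes, of which 30 had enough counts to be tested. With Nfya against GFP 7 rose, 14 fell and 9 did not pass, with a median log2 fold change of -0.08. With Nfe2l1 against GFP 6 rose, 17 fell and 7 did not pass, with a median of -0.16. Over all genes, 24.3% were called higher and 27.9% lower with Nfya, and 28.9% higher and 29.7% lower with Nfe2l1. The medians over all genes were -0.02 and -0.01. The split by direction with Nfya depended on the settings. With only the 6 libraries compared, 3823 of all genes were higher and 3329 lower, beside 3433 and 3953 in the main fit. The other Hippo genes were then 7 higher and 11 lower with Nfya. In Nfya against Nfe2l1 15 were higher, 5 lower and 10 did not pass, where 25.2% of all genes were higher and 25.4% lower. The median was 0.08 beside 0.01 over all genes. The 5 became 2 without Nfya replicate 1 and 3 without Nfe2l1 replicate 1 or Nfe2l1 replicate 3.

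Among the kinases upstream of LATS, Stk4 (MST1) fell by 0.26 ± 0.03 on the log2 scale with Nfya (adjusted p = 7.49e-07) and by 0.20 ± 0.03 with Nfe2l1 (adjusted p = 1.12e-05). Stk3 (MST2) gave 0.04 ± 0.05 with Nfya (adjusted p = 0.597) and fell by 0.20 ± 0.05 with Nfe2l1 (adjusted p = 0.000756). Taok3, a TAO kinase of the family that can activate MST kinases, averaged 25.2 ± 0.19 CPM with Nfya and 52.2 ± 1.81 CPM with Nfe2l1, against 15.8 ± 2.10 CPM with GFP. Its log2 fold change was 0.67 ± 0.11 with Nfya and 1.72 ± 0.09 with Nfe2l1. Stk38l, an NDR kinase related to LATS, rose by 0.42 ± 0.03 with Nfya (adjusted p = 1.62e-08) and by 0.41 ± 0.03 with Nfe2l1 (adjusted p = 1.42e-08).

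Wwc1 (KIBRA), which acts with NF2 to activate LATS, averaged 23.4 ± 1.08 CPM with Nfya and 26.9 ± 2.11 CPM with Nfe2l1, against 74.6 ± 1.93 CPM with GFP, 3.19-fold and 2.77-fold lower (adjusted p = 2.47e-12 and 5.25e-12). Frmd6, a FERM-domain protein placed beside NF2 in the pathway, fell by 0.32 ± 0.03 on the log2 scale with Nfya and by 0.50 ± 0.03 with Nfe2l1. Fat4, an atypical cadherin related to the fly upstream regulator Fat, averaged 147.8 ± 4.93 CPM with Nfya and 51.5 ± 5.34 CPM with Nfe2l1, against 39.7 ± 3.82 CPM with GFP. Its log2 fold change was 1.89 ± 0.06 with Nfya (adjusted p = 1.55e-12) and 0.37 ± 0.08 with Nfe2l1 (adjusted p = 0.000722), and Nfya against Nfe2l1 gave 1.52 ± 0.06 (adjusted p = 1.08e-11).

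Genes known as YAP and TEAD targets were read from a list of 22, of which 21 were tested; Amotl2 and Lats2 of the 10 genes above are on it. With Nfya against GFP 11 rose, 3 fell and 7 did not pass (median log2 fold change 0.12). With Nfe2l1 against GFP 9 rose, 4 fell and 8 did not pass (median 0.01). The shares called in either direction, 66.7% with Nfya and 61.9% with Nfe2l1, are near the 52.2% and 58.6% of all genes. They are by themselves no result about the targets. By direction, 24.3% of all genes were called higher and 27.9% lower with Nfya, and 28.9% higher and 29.7% lower with Nfe2l1. Whether the directions of the targets differ from those of other genes was not tested. In Nfya against Nfe2l1 8 were higher, 4 lower and 9 did not pass (median 0.05), where 25.2% of all genes were higher and 25.4% lower. Those counts of targets were the least stable. The 8 became 5 without Nfya replicate 2 or Nfya replicate 3. The 4 became 2 without Nfya replicate 2, Nfe2l1 replicate 1, Nfe2l1 replicate 3, GFP replicate 1 or GFP replicate 2.

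The targets most often used as readouts of YAP moved little in these counts. Whether a ceiling on counts per base limited their changes was not tested target by target. Ccn1 (Cyr61) rose with Nfya by 0.14 ± 0.04 on the log2 scale (adjusted p = 0.00397) and gave 0.01 ± 0.04 with Nfe2l1 (adjusted p = 0.81). Ccn2 (Ctgf) averaged 288.7 ± 5.84 CPM with Nfya, 275.2 ± 14.9 CPM with Nfe2l1 and 285.8 ± 15.7 CPM with GFP, and did not pass in any comparison. Ankrd1, a cardiac stress gene as well as a YAP target, averaged 302.0 ± 4.30 CPM with Nfya, 287.0 ± 15.6 CPM with Nfe2l1 and 299.8 ± 16.7 CPM with GFP, and did not pass either. The 95% interval of Ankrd1 on the log2 scale ran from -0.08 to 0.10 with Nfya and from -0.15 to 0.03 with Nfe2l1 against GFP.

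Other listed targets changed by more. Axl, a receptor tyrosine kinase, averaged 175.5 ± 1.12 CPM with Nfya and 194.7 ± 1.79 CPM with Nfe2l1, against 84.3 ± 4.22 CPM with GFP, 2.08-fold and 2.30-fold higher (adjusted p = 1.76e-12 and 3.1e-13). Ccdc80, an extracellular matrix protein gene, averaged 276.9 ± 6.89 CPM with Nfya and 257.0 ± 5.79 CPM with Nfe2l1, against 122.3 ± 7.99 CPM with GFP. Nt5e (CD73) rose by 0.80 ± 0.06 on the log2 scale with Nfya and by 0.29 ± 0.06 with Nfe2l1. Dock5, an exchange factor for Rac, rose by 0.55 ± 0.05 with Nfya and by 0.54 ± 0.05 with Nfe2l1, and Myof (myoferlin) by 0.42 ± 0.04 and 0.44 ± 0.04.

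**Figure D5:**
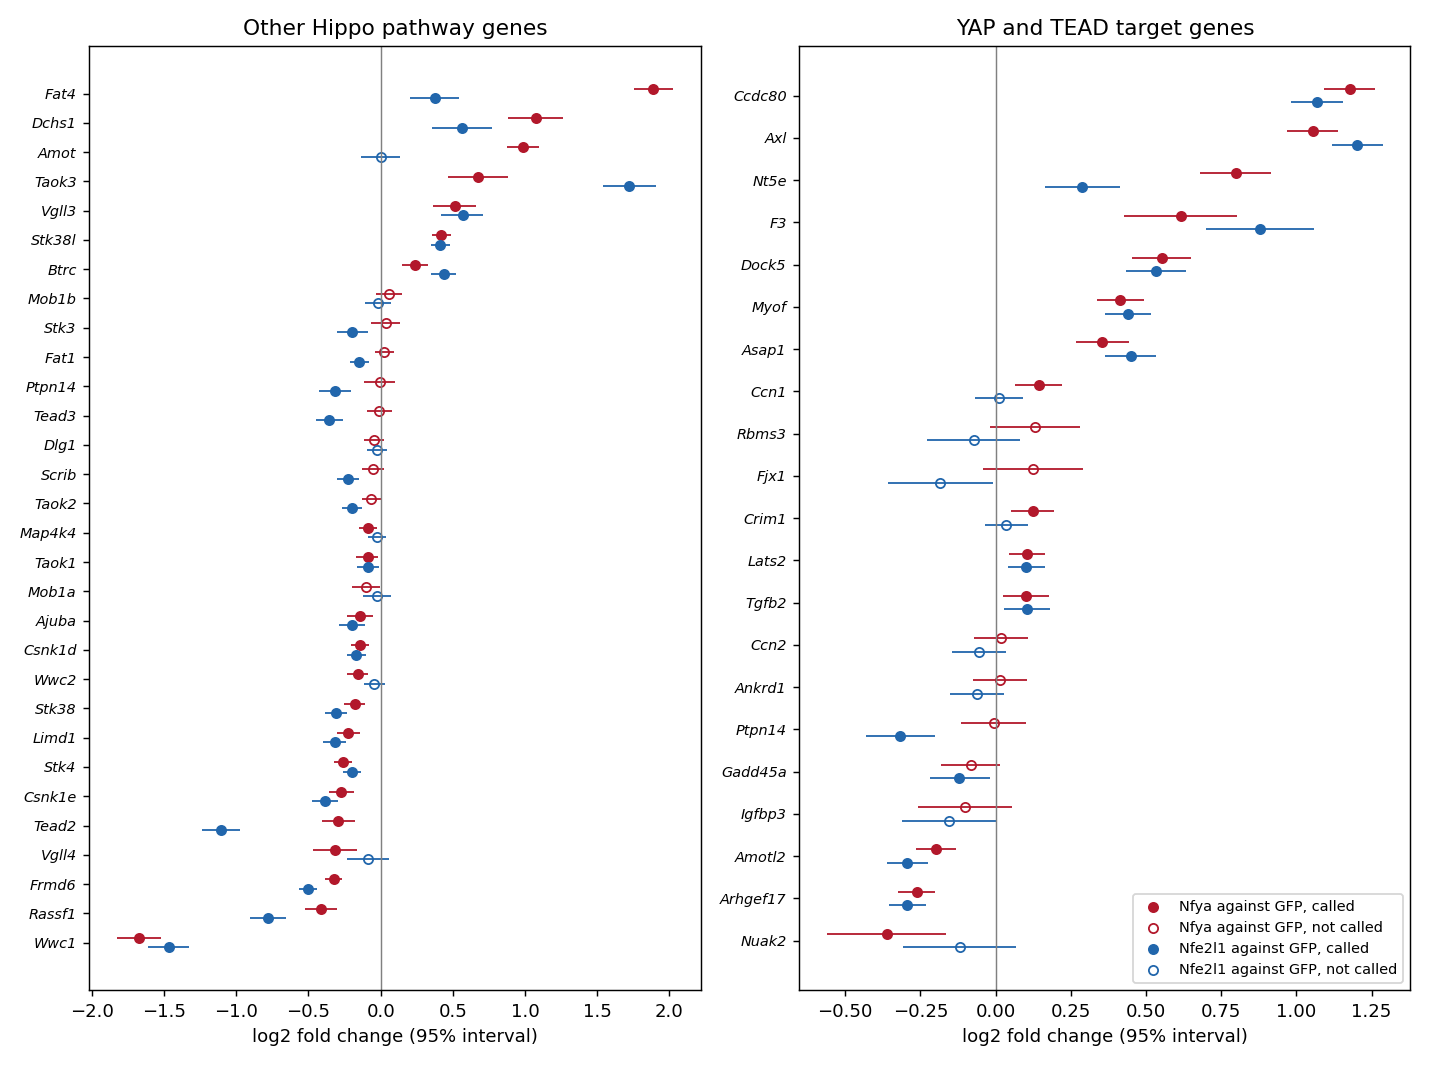
Log2 fold change of the tested genes of the list of other Hippo genes and of the list of YAP and TEAD targets, for Nfya against GFP and Nfe2l1 against GFP; filled points passed the test at an adjusted p below 0.05. Fat4 at 1.89 and Wwc1 at -1.67 mark the ends of the range with Nfya, and Taok3 at 1.72 and Wwc1 at -1.47 those with Nfe2l1.

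Markers of other cell types also changed, in both directions, and an association with the target genes was not tested. Over all genes, 24.3% were called higher and 27.9% lower with Nfya against GFP, and 28.9% and 29.7% with Nfe2l1. Against GFP, 9 of 10 fibroblast markers rose with Nfya and 9 with Nfe2l1, with median log2 fold changes of 1.24 and 0.94. Col1a2 fell with Nfya, at 2.01 ± 1.25 CPM against 9.55 ± 8.22 CPM with GFP, and its libraries overlapped. None fell with Nfe2l1. Tcf21, a defining fibroblast gene with the largest rise of the 10, averaged 16.4 ± 0.23 CPM with Nfya and 9.95 ± 0.60 CPM with Nfe2l1, against 3.07 ± 0.12 CPM with GFP. Of 7 endothelial markers 5 rose and 1 fell with either virus, and their sum was 370.6 to 388.9 CPM with Nfya and 410.4 to 429.5 CPM with Nfe2l1, against 286.8 to 300.5 CPM with GFP. Among the epicardial and mesothelial genes, 6 of 7 rose and 1 fell with either virus, and their sum was 158.0 to 181.1 CPM with Nfya and 183.1 to 202.5 CPM with Nfe2l1, against 127.5 to 138.0 CPM with GFP. Among smooth muscle and pericyte genes, with 6 tested, 5 rose and 1 fell with Nfya, and 2 rose and 2 fell with Nfe2l1. Their sum over 7 was 799.7 to 819.7 CPM with Nfya and 509.4 to 534.8 CPM with Nfe2l1, against 704.3 to 723.0 CPM with GFP. Of 4 tested macrophage markers 3 rose with either virus. Csf1r fell with Nfya (-0.44 on the log2 scale, adjusted p = 0.00219) and none fell with Nfe2l1. Their sums over 6 were 69.7 to 82.2 CPM with Nfya and 77.7 to 89.2 CPM with Nfe2l1, against 54.7 to 69.6 CPM with GFP. Cd163 was not tested and lay near 0 in every group, at 0.10 ± 0.09 CPM with Nfya, 0 with Nfe2l1 and 0.05 ± 0.09 CPM with GFP. Of 9 cardiomyocyte markers 2 rose with Nfya and 1 fell with Nfe2l1. Any limit on their changes from a ceiling on counts per base was not tested. The part of a shift in cell types in the values of the Hippo genes and their targets was not tested.

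Of 7 muscle genes known for MCAT elements, which TEADs bind, 1 passed with Nfya against GFP: Myh6, the alpha myosin heavy chain, rose by 0.16 ± 0.04 on the log2 scale (adjusted p = 0.00681). With Nfe2l1 2 passed, Acta2 and Ckm, which fell by 0.17 ± 0.04 (adjusted p = 0.000787) and by 0.14 ± 0.04 (adjusted p = 0.0107). Nfya was higher than Nfe2l1 in 4 of them, Myh6, Acta1, Acta2 and Nppb, with log2 differences of 0.12 to 0.23. Those are 14.3%, 28.6% and 57.1% of the 7 genes, where 52.2%, 58.6% and 50.6% of all genes passed in the same comparisons. A ceiling on counts per base may bear on these genes and on all genes unequally, which was not tested. Tnnt2, the cardiac troponin T gene, whose MCAT elements are known from chicken, averaged 271.0 ± 2.45 CPM with Nfya, 262.3 ± 17.9 CPM with Nfe2l1 and 272.7 ± 13.0 CPM with GFP, and did not pass in any comparison.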

How the data were processed

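Stranded mRNA-seq libraries of rat ventricular myocytes were analysed, 3 for each virus. The deposited table of raw counts holds whole-number counts per gene symbol, made by the authors with featureCounts 1.6.0, per the submitters' processing notes, which also list the builds GRCm38, mm10 and rn6 and the tools edgeR 3.20.5 and FastQC 0.11.4; for the rat counts, aligner and build are not given in these sources. RPKM values and a gene length in bases were deposited by the authors per the file headers. The authors' deposited comparison tables give log2 fold changes and p-values with adjusted p-values, per the file headers, and were used only for the values credited to them.

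Counts were tested with edgeR 4.0.16 in R 4.3.3 (quasi-likelihood F test, TMM scaling, filterByExpr, all 9 libraries in 1 fit, Benjamini-Hochberg over 14151 genes, called at an adjusted p below 0.05). A standard error is the larger of that implied by the test and the counting error, and 95% intervals follow it; both cover these libraries only. The test was tried on counts simulated for 13955 genes of Nfya against GFP. It recovered 77% of genes changed by 0.5 and 93.9% of those changed by 1 on the log2 scale, with 2.86% false calls. The simulation gave every gene the same spread and changed a small part of the genes, evenly up and down. In the data, 52.2% of genes were called. Changes smaller than 0.5 were not simulated, so these rates do not cover the smaller calls among the 10 genes. CPM are TMM-scaled; ratios and sums used RPKM, which depend on the gene length the authors chose. Totals of 5712123 to 7310774 counts set the precision, and the 10 genes averaged 0.118 to 0.458 counts per base.

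The members and the gene lists were chosen with earlier results of these data known. Besides the members, the text names Nfya and Nfe2l1, the 4 genes with the smallest p of each list of Hippo and target genes against GFP, Stk3, Stk4, Ccn1, Ccn2, Ankrd1 and muscle genes with MCAT elements. Tead3, Tcf21, Col1a2, Csf1r and Cd163 were named after their values were seen. Replicate numbers showed no sign of pairing the libraries: over 9 same-numbered pairs the correlation of deviations from group means was -0.109 to 0.044. Some replicates, such as those with Nfya, differed by little more than counting noise, so the check could miss a pairing. Nfya replicates 1 and 2 differed by no more than sampling noise over all genes (chi-square per gene 1.01, p = 0.29) but by more in sparsely counted genes (1.34, p = 7.02e-40), so they were counted as separate. Alternatives were DESeq2 1.42.0, limma 3.58.1 on log2(RPKM + 1) and log2(RPKM + 0.1), other scaling, filters, samples and thresholds, a replicate block, and each library left out.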

Additional observations from a re-analysis of the deposited data

How the results depend on the processing

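Over 30 log2 fold changes (10 genes, 3 comparisons) and 19 alternatives, 515 of 570 values kept their direction and side of the threshold, 22 lost the call, 8 gained it and 25 turned sign. The calls of Lats1, Tead4 and, against GFP, of Lats2 and Amotl2, of Nf2 with Nfya, of Sav1 with Nfe2l1 and in Nfya against Nfe2l1, and of Yap1 with Nfe2l1 held in all 19. Some held narrowly: with DESeq2 the adjusted p was 0.0499 for Nf2 with Nfya and 0.0403 for Yap1 with Nfe2l1. The count of Hippo genes higher in Nfya against Nfe2l1, 2, became 1 at an adjusted p below 0.01 and was 1 to 3 when a library was left out. In the same comparison the other Hippo genes called lower, 5, became 3 with DESeq2 and 3 at an adjusted p below 0.01; the targets called higher, 8, became 4 at that threshold, and those called lower, 4, became 2 with DESeq2, 2 at a mean CPM of at least 5, 2 at that threshold and 1 with limma. The labels do not say whether replicate numbers pair the libraries. With a replicate block the counts of the 10 genes called stayed at 3 higher and 4 lower (Nfya against GFP), 4 and 3 (Nfe2l1 against GFP) and 2 and 2 (Nfya against Nfe2l1).

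All values that turned sign were small and not called, and the cause was not tested. Some settings also shifted the median log2 fold change over all genes in Nfya against GFP. That shift was 0.029 without the low count filter, 0.04 at a mean CPM of at least 5 and 0.036 with only the 6 libraries compared. With single libraries left out, the log2 fold change against GFP ranged from -0.035 to 0.018 for Tead1 with Nfya, from -0.059 to 0.014 for Tead1 with Nfe2l1 and from -0.066 to 0.000 for Wwtr1 with Nfya. In Nfya against Nfe2l1 the ranges were -0.002 to 0.033 for Tead1, -0.013 to 0.025 for Lats2, -0.044 to 0.047 for Yap1 and -0.020 to 0.055 for Wwtr1. Without the low count filter Tead1 was 0.004 with Nfya and 0.007 with Nfe2l1 against GFP, and Tead1 and Lats2 were both -0.003 in Nfya against Nfe2l1. At a mean CPM of at least 5, Tead1 with Nfya against GFP was 0.015 and Yap1 in Nfya against Nfe2l1 was 0.008. Tead1 with Nfya against GFP was 0.011 with only the 6 libraries compared, and Yap1 in Nfya against Nfe2l1 was 0.010 with limma at both pseudocounts.

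The mean counts per base over the 9 libraries reached no more than 1.45 for any gene with a length. Inverting a ceiling of 1.6 counts per base, an alternative chosen after seeing the data, gave -0.61 for Tead4 with Nfya and -0.93 with Nfe2l1 against GFP, and the Nf2 difference between the viruses then passed (0.08, adjusted p = 0.0493). In genes of the same density as the 10, Nfya libraries differed by 0.776 to 0.858 chi-square per gene, less than counting noise, so the counting error was kept as the lower limit of each standard error.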
